A study of Mus musculus with 14 samples.

Results

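*Eomes*, *Lmx1a* and *Otx2*, 3 of the 31054 genes in the deposited count matrices, were followed by name across cerebellar lineage cells, embryonic stages and *Atoh1* genotypes. Each has 1 row in every matrix and was taken by its symbol, with no threshold on a measured value. The study sorted single mouse hindbrain cells for past expression of *Atoh1*, the proneural basic helix-loop-helix factor of the rhombic lip. The cells came from animals with a partial loss of *Atoh1* function and from their littermates. Control embryos were Atoh1 Cre/+; Rosa lsl-tdTomato/+ and mutant embryos were Atoh1 Cre/S193A; Rosa lsl-tdTomato/+ (written Atoh1S193A/-), in which the phosphorylated serine of the one remaining coding copy is replaced by alanine. Both genotypes therefore carried the Cre knock-in, a null allele in place of the *Atoh1* coding region, and controls had 1 functional copy. All animals were C57BL/6J, and living TdTomato-positive cells were sorted. The sort aimed at cells in which Cre from the *Atoh1* locus had acted and at their descendants, though cells of other kinds were also kept. Whole hindbrains of single embryos gave 3 control and 3 Atoh1S193A/- libraries at E14.5 (embryonic day) and again at E18.5, each mutant collected with a littermate control, and 2 control libraries at P5 (postnatal day) came from pontine nuclei pooled over 11-13 pups. P5 had no mutant and another tissue, so its values are given as levels only.

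The 3 genes encode transcription factors that mark the unipolar brush cells of the cerebellum, excitatory interneurons of the granular layer that leave the rhombic lip after the cerebellar nuclei neurons and alongside the granule cells. *Eomes* (Tbr2) is a T-box factor carried by unipolar brush cells from the rhombic lip into adulthood. *Lmx1a* is a LIM homeodomain factor of the roof plate, the upper rhombic lip and unipolar brush cells. *Otx2* is a bicoid-type homeodomain factor of forebrain, midbrain and choroid plexus that is also known from posterior cerebellar progenitors and from some unipolar brush cells. The cerebellar lineages named here and the hindbrain choroid plexus arise from or beside *Atoh1*-expressing progenitors.

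On GRCm38 with the GENCODE vM21 gene models, *Eomes* (ENSMUSG00000032446) lies at chr9:118478212-118486132 on the plus strand, *Lmx1a* (ENSMUSG00000026686) at chr1:167689237-167848741 on the plus strand and *Otx2* (ENSMUSG00000021848) at chr14:48657677-48673819 on the minus strand. The 5′ part of *Otx2* overlaps the long non-coding gene *Otx2os1* on the opposite strand, at chr14:48668708-48870683. The 3′ libraries are stranded, and the study's methods name Cell Ranger with default parameters, which counts reads on the strand of the gene. The promoters of the pair of members that shared most cells at E18.5 are shown first, from RefSeq on GRCm38.p6. The *Eomes* window chr9:118477939-118478188 (plus strand) overlaps no exon, and the *Otx2* window chr14:48667645-48667894 (minus strand) overlaps no exon but lies within the span of the gene.
Eomes: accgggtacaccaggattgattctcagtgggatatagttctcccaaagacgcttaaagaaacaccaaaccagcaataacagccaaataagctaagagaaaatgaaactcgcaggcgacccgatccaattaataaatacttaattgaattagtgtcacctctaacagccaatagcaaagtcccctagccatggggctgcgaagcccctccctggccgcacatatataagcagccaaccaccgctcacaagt
Otx2: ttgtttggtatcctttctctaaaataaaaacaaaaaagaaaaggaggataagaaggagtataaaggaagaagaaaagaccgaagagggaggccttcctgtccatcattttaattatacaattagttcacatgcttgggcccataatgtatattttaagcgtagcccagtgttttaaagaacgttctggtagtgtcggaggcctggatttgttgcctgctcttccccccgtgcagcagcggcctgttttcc
An *Atoh1* type E-box (CAGCTG, a palindrome), the T-box half-site GGTGTGA or TCACACC and the Otx core TAATCC or GGATTA were searched on both strands in the 250 bases before each start. Of 32851 promoter windows, 13.0% held the E-box, 3.33% the T-box half-site and 6.25% the Otx core. Neither printed window held any of them, nor did the window of *Lmx1a*. The Otx core was found in another *Otx2* start window, 211 bases before that start, in the stretch chr14:48665303-48665332 (minus strand), shown with the core in capitals.
Otx2 core: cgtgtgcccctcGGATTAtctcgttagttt
A match or its absence describes only the letters of these windows.

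Across the 14 libraries, 80256 of 150188 barcodes were kept (3248 to 8726 cells per library). Total unique molecular identifier (UMI) counts were 108239001 to 236964126 per library, and the median per kept cell was 12009 to 20906.5. At most 0.624% of barcodes were shared between any pair of libraries. *Atoh1* itself does not check the labels, since a point mutation leaves its 3′ counts in place: its level was 55.4 to 139 CPM (UMI counts scaled to 1000000 per library or cell group) in E14.5 controls and 86.3 to 145 CPM in E14.5 mutants. Clusters were made without the 3 members, but *Otx2os1*, the antisense neighbour of *Otx2*, was not left out. It is among the leading genes of E18.5 cluster 24, so clustering was not blind to the *Otx2* locus. Clusters low in Hox genes with *Pax6* and *Zic1* were called the cerebellar lineage. They held 37598 cells, 8594 of 34427 at E14.5, 27080 of 31823 at E18.5 and 1924 of 14006 at P5. Some other clusters were led by microglial genes, such as P5 cluster 9 with *Cx3cr1* and *P2ry12* (655 cells). Sorting alone therefore does not establish that Cre had acted in a cell. The second E14.5 litter stood apart, with 14.2% cerebellar cells in the control and 15.8% in the mutant, against 27.7% to 35.2% in the other 4 E14.5 libraries. E14.5 values are given litter by litter, and the calls on the members that rest on litter as a block are also given without it, from 2 litters with 1 residual degree of freedom per gene.

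*Eomes* was almost wholly a gene of cerebellar lineage cells, which held 90.5% to 99.1% of its UMIs in every library. In cerebellar lineage cells its level in the 3 E14.5 controls was 75.7, 67.9 and 80.1 CPM and in the 3 E18.5 controls 226, 183 and 157 CPM. In the remaining sorted cells it was 0.914 to 2.12 CPM in the E14.5 libraries and 11.1 to 17.6 CPM in the E18.5 libraries, where cerebellar cells made up 76.6% to 90.5% of all cells. Every E18.5 control was above every E14.5 control, as for 36.3% of all genes in the higher direction. *Lmx1a* went the other way, with 50.3, 103 and 43.2 CPM in E14.5 controls and 21.1, 14.6 and 16.1 CPM in E18.5 controls. *Otx2* overlapped between the stages, with 316, 217 and 237 CPM at E14.5 and 274, 289 and 259 CPM at E18.5. At P5, the cerebellar lineage cells of libraries 1 and 2 had 651 and 196 CPM of *Eomes*, 151 and 34.0 CPM of *Lmx1a*, and 143 and 283 CPM of *Otx2*. The 2 P5 libraries thus differed for each member, *Eomes* and *Lmx1a* being higher in library 1 and *Otx2* in library 2, and their clusters differed in cell number as well.

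**Figure D1:**
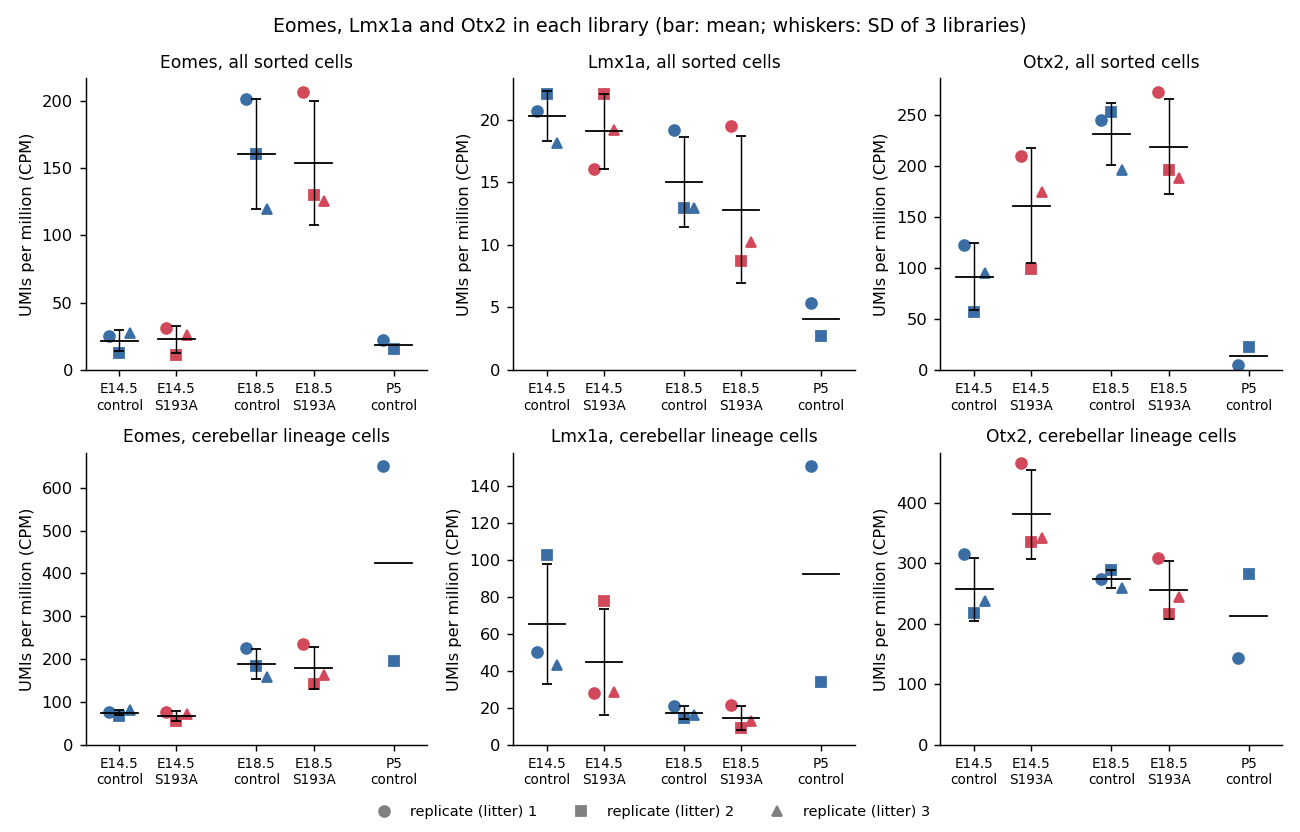
Level of *Eomes*, *Lmx1a* and *Otx2* (CPM) in every library, summed over all sorted cells and over cerebellar lineage cells, with 1 point per library, genotypes in separate colours, litters as point shapes, a bar at the mean and whiskers of 1 SD where there were 3 libraries. *Eomes* in cerebellar cells stands at 54.2 to 80.1 CPM in the 6 E14.5 libraries and at 142 to 235 CPM in the 6 E18.5 libraries.

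In controls, the change from E14.5 to E18.5 was tested over 3 against 3 embryos. *Eomes* rose by 1.20 ± 0.13 (log2 fold change ± SE; adjusted p = 0.00033, edgeR quasi-likelihood test with Benjamini-Hochberg adjustment over all genes) in cerebellar lineage cells. *Lmx1a* fell by 2.05 ± 0.31 on the log2 scale (edgeR adjusted p = 0.0015), and *Otx2* gave a log2 difference of -0.03 ± 0.12 (edgeR adjusted p = 0.86). With stricter marker limits, which leave out E14.5 cluster 17 and E18.5 cluster 19, the clusters with the highest mean *Lmx1a* at each stage, the log2 difference of *Lmx1a* was -0.65 and that of *Otx2* was -0.32 (edgeR adjusted p = 0.016). Over the settings that keep every library the edgeR adjusted p of *Otx2* was 0.016 to 0.89, and without single libraries it was 0.325 to 0.9998. Over all genes 41.4% were called in this comparison, so calls on 2 of 3 members do not set them apart from other genes. Summed over all sorted cells, *Eomes* rose by 2.81 ± 0.31 (edgeR adjusted p = 0.00045) and *Otx2* by 1.27 ± 0.25 (edgeR adjusted p = 0.0043) on the log2 scale, where 46.2% of genes were called. *Lmx1a* gave -0.51 ± 0.17 on the log2 scale (edgeR adjusted p = 0.038), which turned to 0.12 (edgeR adjusted p = 0.24) once cells with up to 10% mitochondrial UMIs were kept; its call was also lost without E14.5 control 1, 2 or 3 or E18.5 control 2 or 3 (edgeR adjusted p from 0.052 to 0.15). These sums over cells do not separate the number of cells of a kind from the level per cell.

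The genes known beside the members in unipolar brush cells moved in both directions between the stages. Of 13 in cerebellar lineage cells, 7 rose, as did 19.5% of all genes, 2 fell, as did 22% of all genes, and 4 were not called; their median log2 difference was 0.75, against 0.00 over all genes. *Plcb1*, a phospholipase C of G protein-coupled receptor signalling, rose by 1.76 ± 0.13 on the log2 scale (edgeR adjusted p = 7.7e-05). *Slc17a7*, a vesicular glutamate transporter, rose by 1.20 ± 0.13 (edgeR adjusted p = 0.00034). *Calb2*, encoding the calcium-binding protein calretinin, fell by 2.08 ± 0.33 (edgeR adjusted p = 0.0019). *Nrgn*, a calmodulin-binding protein, fell by 2.12 ± 0.51 (edgeR adjusted p = 0.011).

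At E18.5 each member had its own order of clusters. *Eomes* stood at 1627, 1637 and 1482 CPM in cluster 6 in the 3 controls, a mean of 1582 ± 86.6 CPM (SD, n = 3). Cluster 6 was led by *Calb2*, *Tac2*, *Samd3* and *Grp*, and held *Calb2* at 1488 ± 151 CPM, the transcriptional corepressor *Cbfa2t3* at 99.6 ± 10.9 CPM and the vesicular glutamate transporter *Slc17a6* at 82.0 ± 18.9 CPM, so it is called unipolar brush cell-like. The name rests on part of the partner list, whose other genes are not given for this cluster. Summed, the list stood at 502 to 560 CPM in E18.5 control cerebellar cells and 525 to 573 CPM in the other cells. *Eomes* was next highest in cluster 2 (978 ± 109 CPM), led by *Galnt15*, *Tmem200a* and *Ebf2*, and in cluster 19 (426 ± 16.0 CPM), led by *Bcl11b*, *Optc* and *Mgat5*. No control value of cluster 6 overlapped cluster 2, and none of cluster 2 overlapped cluster 19. *Eomes* was not confined to these clusters: 12 of 30 E18.5 clusters had a mean of 100 CPM or more.

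*Lmx1a* was the most restricted member at E18.5, with 2 of 30 clusters at 100 CPM or more and 19 of 30 under 5 CPM. Its highest mean was 228 ± 20.3 CPM in cluster 19, followed by 171 ± 4.75 CPM in cluster 6 and 75.3 ± 11.2 CPM in cluster 2, and these 3 clusters did not overlap in the controls. *Otx2* was the broadest at the higher limit, with 14 of 30 clusters at 100 CPM or more, while *Eomes* and *Otx2* each had 27 of 30 at 10 CPM or more. It was highest in the cycling cluster 11 (842 ± 42.3 CPM), led by *Nts*, *Rassf9* and *Cdc20*, and in cluster 24 (837 ± 83.1 CPM), led by *Nts*, *Rassf9* and *Tph1*, whose values overlapped. Cluster 2 followed at 710 ± 26.7 CPM. The members were thus ordered 6, 2, 19 for *Eomes*, 19, 6, 2 for *Lmx1a* and 11, 24, 2 for *Otx2*.

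**Figure D2:**
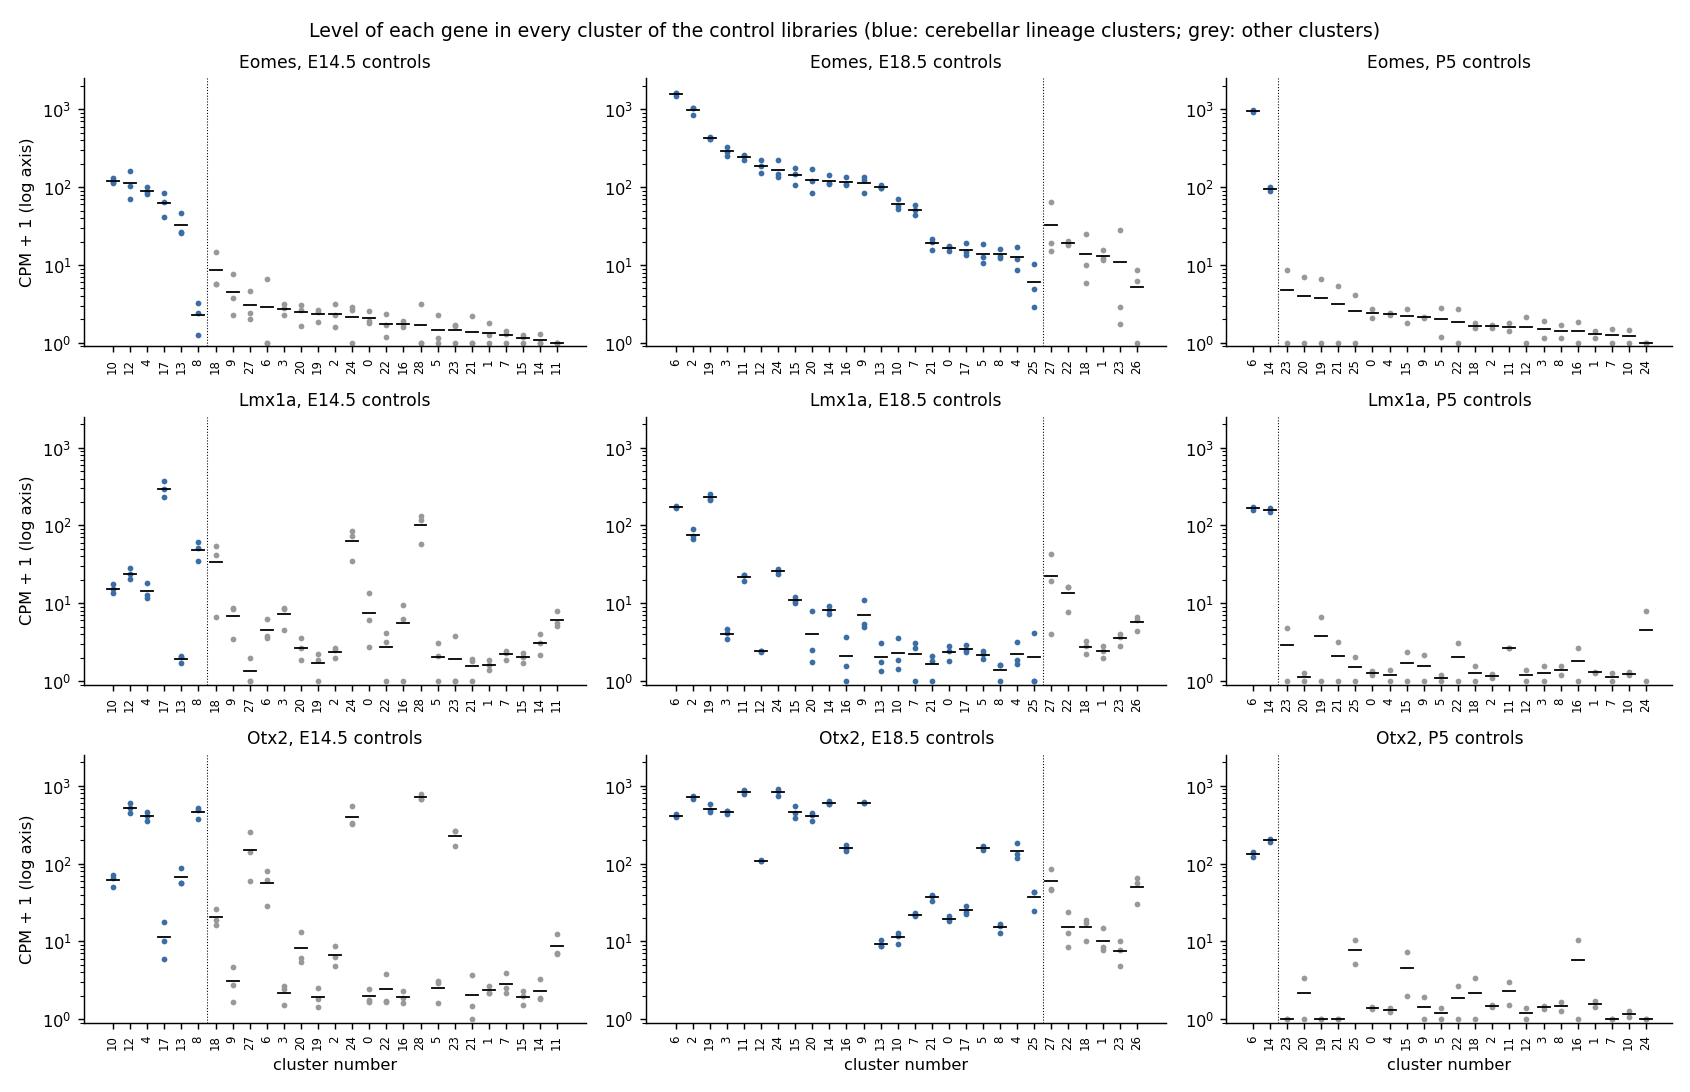
Level of *Eomes*, *Lmx1a* and *Otx2* (CPM + 1, log axis) in control libraries, by stage, for every cluster with at least 10 cells in each control library of that stage, with 1 point per library, a bar at the mean, and the cerebellar lineage clusters in blue to the left of the dotted line. At E18.5 *Eomes* has its highest mean in cluster 6 (1582 CPM), *Lmx1a* in cluster 19 (228 CPM) and *Otx2* in cluster 11 (842 CPM).

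At E14.5 the cluster with the highest mean differed between the members. *Eomes* was at 118 ± 9.12 CPM in cluster 10, led by *Ostf1*, *Cadps2* and *Neurod1*, at 111 ± 44.4 CPM in cluster 12, led by *Krt19*, *Ccnd2* and *Cartpt*, and at 88.2 ± 9.19 CPM in the cycling cluster 4. The control values of cluster 12 overlapped those of both other clusters, while cluster 10 and cluster 4 did not overlap. *Lmx1a* was highest in cluster 17, at 368, 293 and 228 CPM in the 3 controls, above every other cluster. Cluster 17 was led by *Calb2*, *Tbr1*, *Nefl* and *Nefm*. *Calb2* marks unipolar brush cells and *Tbr1* marks glutamatergic cerebellar nuclei neurons, and cluster 17 held *Calb2* at 1398 ± 426 CPM, so it is named by its genes only. *Lmx1a* followed in the choroid plexus-like clusters 28 (100 ± 38.8 CPM) and 25 (84.6 ± 16.0 CPM in the 2 controls with at least 10 of its cells) and in cluster 24, led by *Dkk3*, *Msx1* and *Id1* (62.8 ± 25.4 CPM), whose values overlapped.

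*Otx2* at E14.5 was highest outside the cerebellar lineage, in the choroid plexus-like clusters 28, with *Ttr*, *Clic6* and *Folr1* (708 ± 57.4 CPM), and 25 (653 ± 54.9 CPM, n = 2). Within the lineage it stood at 516 ± 78.7 CPM in cluster 12 and at 457 ± 77.8 CPM in the rhombic lip-like cluster 8, led by *Rspo1* and *Wnt1* and also rich in *Rspo3* and *Msx2*, and the control values of these 2 overlapped. In cluster 8 *Eomes* was near its level in Hox-positive cells, at 0.268 to 2.23 CPM in the controls. In cluster 17, where *Lmx1a* peaked, *Otx2* was at 4.86 to 16.6 CPM in the controls. In controls, 8 of 32 E14.5 clusters held *Otx2* at 100 CPM or more, against 2 of 32 for *Eomes* and 2 of 32 for *Lmx1a*.

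At P5, *Eomes* was concentrated in cluster 6, at 936 and 977 CPM in libraries 1 and 2, led by *Grp*, *Gm2694* and *En2*, with *Calb2* at 2056 ± 109.7 CPM, *Plcb4* at 109.7 ± 0.83 CPM and *Sln* at 91.3 ± 16.6 CPM (SD, n = 2). The other listed partners are not given for this cluster, which is called unipolar brush cell-like on these genes only. Cluster 6 and cluster 14 were the only P5 clusters with *Lmx1a* at 10 CPM or more. The means of *Lmx1a* were 165 CPM in cluster 6 and 156 CPM in cluster 14, and the values of the 2 overlapped. *Otx2* was higher in cluster 14 (188 and 209 CPM) than in cluster 6 (121 and 142 CPM). It was also at 402 CPM in cluster 13 and 238 CPM in the cycling cluster 17, both led by granule lineage or proliferation genes and found almost wholly in library 2. These 2 clusters lacked *Lmx1a*, at 0.569 and 0 CPM. *Eomes* was at 129 CPM in cluster 13, 17.6 CPM in cluster 17 and a mean of 94.5 CPM in cluster 14.

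The members were also read cell by cell, after each cell was thinned to 5000 UMIs so that depth did not differ. Cells under 5000 UMIs were left out, which kept 662 of 692 control cells in E18.5 cluster 6 and 300 of 420 in P5 cluster 14. Among E18.5 control cerebellar cells with an *Lmx1a* UMI, 82.4 ± 2.52% (SD, n = 3) also had an *Eomes* UMI and 79.8 ± 2.23% an *Otx2* UMI. Among those without *Lmx1a*, 30.3 ± 2.66% had *Eomes* and 47.1 ± 1.21% had *Otx2*. In the reverse direction, 19.3 ± 1.54% of cells with *Eomes* had *Lmx1a*, against 2.199 ± 0.54% of those without *Eomes*, and 71.3 ± 0.66% had *Otx2*, against 38.4 ± 0.71%. At E14.5, 30.6 ± 4.13% of control cells with *Lmx1a* had *Eomes*, against 22.0 ± 0.80% of those without, and 35.8 ± 11.6% had *Otx2*, against 42.3 ± 2.67%. This last difference had no fixed direction, being positive in control 1 and negative in the others, and without thinning the means were 57.4% and 55.2%. Of E14.5 control cells with *Eomes*, 50.7 ± 11.6% had *Otx2*, against 37.6 ± 3.99% of those without. All 3 members were seen together in 2.14 ± 0.97% of E14.5 and 5.58 ± 1.04% of E18.5 control cerebellar cells.

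At E18.5 the triple-positive cells lay chiefly in 3 clusters. They made up 40.9% of control cells of cluster 6, 33.6% of cluster 19 and 26.0% of cluster 2, where a further 60.5% had *Eomes* with *Otx2* but no *Lmx1a* UMI. In cluster 11, 47.7% of cells had *Otx2* alone and 39.4% *Eomes* with *Otx2*. At E14.5, 49.1% of cluster 17 had *Lmx1a* alone and 15.4% *Eomes* with *Lmx1a*, while 57.7% of cluster 8 had *Otx2* alone and 17.8% *Lmx1a* with *Otx2*. Hox-positive clusters outside the lineage also held UMIs of the members. Over the 12 such E14.5 clusters the median share of control cells was 0.27% for *Eomes*, 1.33% for *Lmx1a* and 1.29% for *Otx2*, with the highest shares at 3.41% in cluster 18 for *Eomes* and at 27.5% and 75.0% in cluster 24 for *Lmx1a* and *Otx2*. Over the 6 such E18.5 clusters the medians were 3.82%, 1.32% and 3.4%. The part of free RNA in these shares was not tested. The median depth before thinning was 22365 UMIs in the Hox-positive E18.5 cluster 18, against 10422 in E18.5 cluster 6. Before thinning, 73.4% of cluster 6 and 2.62% of cluster 18 had an *Lmx1a* UMI. A cell with no UMI of a gene may still express it at this depth. Shares by cluster, here and below, are over the cells of all libraries of a stage and genotype together, without a spread over embryos.

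**Figure D3:**
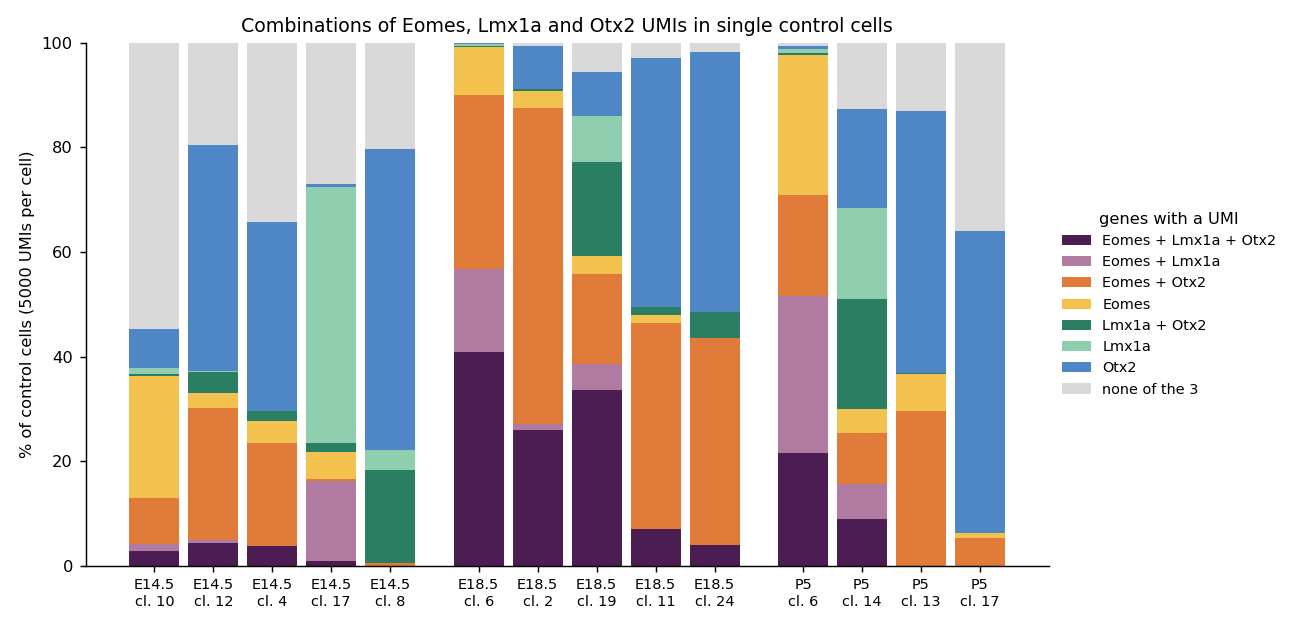
Share of control cells, over all control libraries of a stage together (percent, thinned to 5000 UMIs per cell), with each combination of *Eomes*, *Lmx1a* and *Otx2* UMIs, as stacked bars per cluster. At E18.5 all 3 members meet in 40.9% of cluster 6, while at E14.5 *Lmx1a* alone takes 49.1% of cluster 17 and *Otx2* alone 57.7% of cluster 8.

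The genotype comparison asked whether partial loss of *Atoh1* function changed the members. *Otx2* was higher in the E14.5 mutant of each litter. Over all sorted cells it was at 122, 56.5 and 94.98 CPM in controls 1 to 3 and at 209, 99.2 and 174 CPM in the mutants collected with them. The ratio of mutant to littermate was 1.71, 1.75 and 1.83, though the groups overlapped because both libraries of litter 2 were low. The log2 fold change was 0.78 ± 0.35 without litter in the fit (unadjusted p = 0.058; edgeR adjusted p = 0.44, with other settings without litter from 0.186 to 0.998) and 0.77 ± 0.04 with litter as a block (edgeR adjusted p = 0.0042). Without litter 2 it was 0.79 ± 0.15 (edgeR adjusted p = 0.26), and 0.79 with the block (edgeR adjusted p = 0.010). In the fit without litter, 0 of 17595 genes (0%) were called, with 2010 genes at an unadjusted p under 0.05, and DESeq2 called 456. With the litter block 17.8% of genes were called, 10.4% as higher, so the call on *Otx2* is one of 1879 genes called higher. *Otx2* was one of the 35% of genes that were higher in every litter. The headers of E14.5 controls 1 and 2 name Cell Ranger 3.1.0, and those of all other libraries name 5.0.1. In litters 1 and 2 version and genotype thus cannot be told apart, in any E14.5 genotype comparison and with or without the litter block. Both libraries of litter 3 name 5.0.1.

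*Eomes* and *Lmx1a* did not share this pattern in sorted cells. *Eomes* was at 25.4, 12.8 and 27.1 CPM in E14.5 controls and at 30.8, 11.3 and 26.2 CPM in mutants, a log2 fold change of 0.03 ± 0.42 (edgeR adjusted p = 0.99). Its direction depended on the fit, with -0.03 under the litter block. *Lmx1a* was at 20.7, 22.1 and 18.1 CPM in controls and at 16.1, 22.1 and 19.2 CPM in mutants, a log2 fold change of -0.14 ± 0.14 (edgeR adjusted p = 0.73). Neither was called in the block fit (edgeR adjusted p = 0.86 and 0.28). The sorted sum of *Lmx1a* joins cerebellar and other cells, whose summed levels differed from the littermate in opposite directions. In non-cerebellar cells it was at 6.89, 5.26 and 5.71 CPM in controls and at 8.48, 9.12 and 14.2 CPM in mutants, and its lower cerebellar values are given below. How many of all genes did so was not counted. The non-cerebellar clusters 28, 24 and 25 held 62, 120 and 79 control cells and 205, 425 and 360 mutant cells. Their mean *Lmx1a* was 100, 62.8 and 84.6 CPM in controls and 100, 48.9 and 97.3 CPM in mutants. The parts of cell number and level were not tested.

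The higher *Otx2* sum went with more cells of some *Otx2*-rich clusters. The gain was split cluster by cluster, using each cluster's share of the library's UMIs, which holds both cell number and UMIs per cell. These shares accounted for 56.4 of 87.1 CPM in litter 1, 36.6 of 42.7 CPM in litter 2 and 67.0 of 78.9 CPM in litter 3. The remaining 30.7, 6.05 and 11.9 CPM came from levels within clusters. The rhombic lip-like cluster 8 took 3.14%, 2.55% and 2.80% of control cells and 7.63%, 6.86% and 6.22% of mutant cells. The choroid plexus-like cluster 25 took 0.216%, 0.394% and 0.716% of control cells and 0.712%, 1.07% and 3.83% of mutant cells. The *Otx2*-rich clusters 4 and 12 were larger in the mutants of litters 1 and 3 but not of litter 2, where cluster 4 went from 2.57% to 1.36% and cluster 12 from 1.29% to 1.21% of cells. Within cluster 8 the level of *Otx2* was 483, 518 and 369 CPM in controls and 431, 501 and 375 CPM in mutants, a log2 fold change of -0.08 ± 0.13 without litter, which was not called. Shares of cells are compositional, since more of one kind of cell lowers the share of every other, and they were not tested here.

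**Figure D4:**
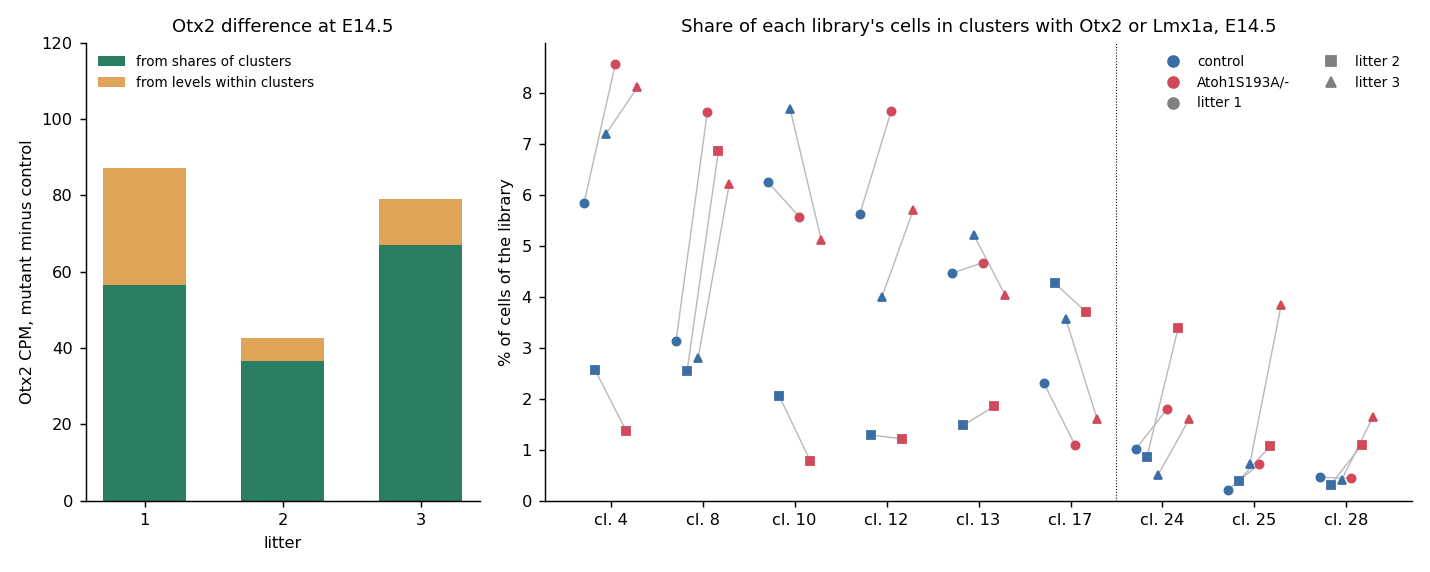
Left, the E14.5 difference of *Otx2* in sorted cells (CPM, mutant minus littermate control) in each litter, stacked by the part from the clusters' shares of UMIs and the part from levels within clusters. Right, the share of each library's cells (percent) in 6 cerebellar lineage clusters and, past the dotted line, in clusters 24, 25 and 28, with littermates joined by a line. The stacks reach 87.1, 42.7 and 78.9 CPM, and cluster 8 is larger in the mutant of each litter.

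Markers of neighbouring tissue moved with *Otx2* at E14.5. The summed level of the 10 choroid plexus genes, which include *Otx2os1*, was 796 to 2805 CPM in control sorted cells and 1827 to 13360 CPM in mutant ones. In cerebellar lineage cells the sum was 47.9 to 61.2 CPM in controls and 137 to 303 CPM in mutants, and *Ttr*, the transthyretin gene of the choroid plexus, was at 25.7, 41.0 and 36.9 CPM in controls and 98.5, 102 and 262 CPM in mutants. With the litter block, 8 of 10 choroid plexus genes were higher in sorted cells, where 10.4% of all genes were, and 6 of 9 in cerebellar cells, where 8.65% were; without it none was called. Of 16 rhombic lip and roof plate genes, 14 were higher in sorted cells and 11 in cerebellar cells with the block, again none without it, and their median log2 difference in sorted cells was 0.96 with the block against 0.01 over all genes. *Otx2* in the non-cerebellar cells was 31.5, 23.0 and 24.4 CPM in controls and 42.8, 44.1 and 85.1 CPM in mutants. Some other lists also had no overlap between genotypes in cerebellar cells: the summed neuron maturation genes were at 6380 to 10860 CPM in controls and 3515 to 6292 CPM in mutants, the unipolar brush cell partners at 398 to 562 CPM and 266 to 314 CPM, glial genes at 363 to 535 CPM and 645 to 789 CPM, and mesencephalic genes at 118 to 188 CPM and 204 to 282 CPM. These are examples, and not all lists are given. Of single genes, 12% did not overlap in the higher direction, and the share in the lower direction is not given. The part of choroid plexus cells, of their free RNA or of these other genes in the *Otx2* result was not tested.

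Within cerebellar lineage cells the E14.5 genotypes did not overlap for *Otx2*, but the same 6 clusters made up different proportions of the lineage in each genotype. Cluster 8 held 11.4%, 17.9% and 9.2% of cerebellar cells in controls and 21.7%, 43.5% and 20.2% in mutants. *Otx2* in all cerebellar cells was at 316, 217 and 237 CPM in controls and at 466, 336 and 342 CPM in mutants, with no overlap, as for 12% of all genes in the higher direction. The log2 fold change was 0.54 ± 0.18 (unadjusted p = 0.016; edgeR adjusted p = 0.24, with other settings without litter from 0.10 to 0.73) and 0.54 ± 0.05 with the litter block (edgeR adjusted p = 0.0014; without litter 2, 0.53 and edgeR adjusted p = 0.00022). Without the block 0 of 14591 genes (0%) were called in these cells, with 2016 genes at an unadjusted p under 0.05 and 519 called by DESeq2; with it 18.3% were called. After thinning, 45.5%, 35.6% and 41.1% of control cerebellar cells had an *Otx2* UMI, against 62.8%, 46.7% and 54.7% of mutant cells (two-sided exact permutation p = 0.1, the smallest that 3 against 3 allows). With litter as a block, the logit of this share differed by 0.57 ± 0.07 (limma, unadjusted p = 0.00013, against 0.034 without the block). That block fit gave the same SE to each member, since limma pooled the variance over the 3 members, which were read in the same cells, so its p-values rest on more than the 3 litter pairs. In the 12 Hox-positive E14.5 clusters the median share was 1.29% in controls and 2.19% in mutants, and the mutant share was higher in 8 of them.

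*Lmx1a* was lower in the cerebellar cells of each E14.5 mutant than in its littermate, at 27.8, 77.6 and 28.6 CPM against 50.3, 103 and 43.2 CPM. This order held in every litter, as for 23% of all genes in the lower direction. The groups overlapped, and the log2 fold change was -0.60 ± 0.46 without litter (edgeR adjusted p = 0.61, with other settings without litter from 0.18 to 0.999; -1.23 to -0.11 without single libraries) and -0.65 ± 0.08 with the litter block (edgeR adjusted p = 0.0032; without litter 2, -0.74 and edgeR adjusted p = 0.00019). Much of the *Lmx1a* lay in cluster 17, which held 49.8%, 67.5% and 55.3% of the *Lmx1a* UMIs of control sorted cells and 17.03%, 42.7% and 19.5% of those of mutants. Cluster 17 took 2.31%, 4.27% and 3.56% of control cells and 1.09%, 3.70% and 1.598% of mutant cells. Within it *Lmx1a* was at 296 ± 69.8 CPM in controls and 220 ± 6.62 CPM in mutants (SD, n = 3), not called with all litters. Without single libraries that log2 fold change was -0.62 to -0.32. Over all clusters of sorted cells, the split by litter gave -2.04, 3.19 and 0.48 CPM from UMI shares. Levels within clusters gave -2.62, -3.23 and 0.56 CPM. The parts of cell number and level were not tested. With the stricter marker limits, chosen after the data had been seen, cluster 17 was left out and the log2 fold change turned to 0.35 (edgeR adjusted p = 0.69).

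*Eomes* in the same cells was at 75.7, 67.9 and 80.1 CPM in controls and at 75.1, 54.2 and 71.6 CPM in mutants, a log2 fold change of -0.18 ± 0.15 (edgeR adjusted p = 0.65), not called with the block either (edgeR adjusted p = 0.12). Without single libraries it was -0.27 to -0.043. The thinned share of cells with an *Eomes* UMI was 23.7%, 22.9% and 23.7% in controls and 19.5%, 15.2% and 18.6% in mutants, with no overlap (two-sided exact permutation p = 0.1, the smallest possible). How many of all genes had no overlap in such a share was not counted, so this does not set *Eomes* apart. The gap was not seen for cells with 2 or more *Eomes* UMIs, at a mean of 8.86% in controls and 8.56% in mutants (exact permutation p = 0.8), and it was wider without thinning, at 44.9% and 31.95% (exact permutation p = 0.1). Cluster 8, where 0.451% of control and 0.646% of mutant cells had *Eomes*, took more of the mutant cerebellar cells, as given above. Within clusters the share, over the cells of all embryos of a genotype together, moved in both directions. It was higher in mutants in cluster 10 (36.3% of control and 43.5% of mutant cells) and cluster 17 (21.8% and 33.3%). It was lower in cluster 4 (27.6% and 18.8%), cluster 12 (33.0% and 24.6%) and cluster 13 (10.2% and 6.52%). These shares have no spread over embryos, which gave unequal cell numbers, such as 409, 94 and 533 in cluster 4 of mutants 1 to 3. The level of *Eomes* in cluster 4 was 88.2 ± 9.19 CPM in controls and 87.0 ± 24.7 CPM in mutants (SD, n = 3). For *Lmx1a* the share was 13.7%, 26.9% and 13.2% in controls and 10.4%, 22.6% and 11.5% in mutants (exact permutation p = 0.5). Both shares were lower in the mutant of each litter, and with litter as a block their logits differed, with the same pooled variance, by -0.35 ± 0.07 for *Eomes* (limma, unadjusted p = 0.0016, against 0.030 without the block) and by -0.23 ± 0.07 for *Lmx1a* (limma, unadjusted p = 0.012, against 0.53).

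The paralogs of the members were low, and 2 of them were called with the block in E14.5 cerebellar cells, where 18.3% of all genes were. *Tbr1*, the T-box relative of *Eomes* in cerebellar nuclei neurons, was at 18.8, 51.7 and 24.4 CPM in controls and 5.75, 18.1 and 8.88 CPM in mutants, a log2 fold change of -1.59 ± 0.48 without litter (edgeR adjusted p = 0.23) and -1.58 ± 0.08 with it (edgeR adjusted p = 0.00052). *Lmx1b*, the LIM homeodomain relative of *Lmx1a*, was at 1.31, 1.29 and 1.61 CPM in controls and 4.06, 3.21 and 3.00 CPM in mutants, a log2 fold change of 1.24 ± 0.22 (edgeR adjusted p = 0.13; with the block 1.20 ± 0.20, edgeR adjusted p = 0.0087). *Otx1*, the relative of *Otx2*, gave 0.22 ± 0.31 without litter (edgeR adjusted p = 0.80). Of 12 unipolar brush cell partners tested there, 4 were lower with the block, as were 9.69% of all genes, and 0 were called without it. *Tbr1* and *Calb2* were leaders of cluster 17. That cluster held 8.35%, 30.0% and 11.7% of cerebellar cells in controls 1 to 3 and 3.1%, 23.5% and 5.19% in mutants. The part of this share in their difference was not tested. *Calb2* was at 127, 285 and 242 CPM in controls and 39.3, 77.3 and 77.0 CPM in mutants, a log2 fold change of -1.79 ± 0.35 (edgeR adjusted p = 0.13; with the block -1.77 ± 0.07, edgeR adjusted p = 0.00023).

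Within single clusters few differences were called. At E14.5, 42 pairs of a member and a cluster could be tested and 0 were called without litter, against 0.00144% of all gene and cluster pairs. Of the 42, 11 had an unadjusted edgeR p under 0.05, as did 2.76% of all pairs. These 11 pairs are not named here, and pairs at low CPM outside the cerebellar lineage were not set apart. The pairs share embryos and a gene can recur over clusters, so the 11 are not separate results. With the litter block 2 pairs were called, against 0.416% of all pairs, 2.49% of genes in cluster 12 and 0.898% in cluster 13. Without litter 2 the block fit called 10 pairs, against 1.23% of all pairs, and both of these were among them. Not all of the 10 pairs are named here. *Otx2* in cluster 12 was at 598, 441 and 510 CPM in controls and 815, 664 and 600.2 CPM in mutants, a log2 fold change of 0.39 ± 0.09 with the block (edgeR adjusted p = 0.037). *Eomes* in cluster 13, led by *Pvalb*, *Carnmt1* and *Sp5*, was at 25.7, 45.0 and 24.8 CPM in controls and 12.1, 25.4 and 16.8 CPM in mutants, a log2 fold change of -0.81 ± 0.15 with the block (edgeR adjusted p = 0.024). The genotypes did not overlap for *Otx2* in cluster 12, and they did for *Eomes* in cluster 13. The share of all genes in cluster 12 without overlap was not counted. *Eomes* in cluster 10 was at 129, 111 and 115 CPM in controls and 194, 118 and 198 CPM in mutants, called only without litter 2 (0.66 against 0.49 on the log2 scale with all litters, both with the block).

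At E18.5 the ranges of the genotypes overlapped for every member. In sorted cells *Eomes* was at 202, 160 and 120 CPM in controls and 207, 130 and 125 CPM in mutants, *Lmx1a* at 19.2, 12.9 and 13.0 CPM against 19.5, 8.67 and 10.3 CPM, and *Otx2* at 245, 253 and 196 CPM against 272, 196 and 188 CPM. The log2 fold changes were -0.07, -0.24 and -0.09, each with an edgeR adjusted p of 0.9999, and that of *Lmx1a* was -0.67 to -0.036 without single libraries. In these cells 0 of 16720 genes (0%) were called, with 344 genes at an unadjusted p under 0.05 and 22 called by DESeq2, and 0.117% were called with the block, none of them a member. In cerebellar lineage cells the log2 fold changes were -0.09 for *Eomes*, -0.27 for *Lmx1a* and -0.12 for *Otx2*, none called, where 0.0251% of genes were called without litter and 0.518% with it. That of *Otx2* was -0.27 to -0.028 without single libraries (edgeR adjusted p from 0.81 to 0.9999). In the unipolar brush cell-like cluster 6 the log2 fold change of *Eomes* was 0.05 ± 0.07. Of 59 member and cluster pairs at E18.5, 0 were called with or without the block. Of all gene and cluster pairs, 0.676% were called with it and 0.155% without it. Without the block 7 of the 59 had an unadjusted edgeR p under 0.05, as did 4.99% of all pairs. These 7 pairs are not named here, and they share embryos as well.

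The stage dependence of the genotype difference was tested as an interaction. For *Otx2* the E18.5 log2 difference minus the E14.5 one was -0.87 ± 0.42 without litter (edgeR adjusted p = 0.73) and -0.87 ± 0.11 with the litter block (edgeR adjusted p = 0.0080; without E14.5 litter 2, -0.8963 and edgeR adjusted p = 0.012), where 9.77% of genes were called, 5.57% as lower. Without the block 0 of 17985 genes (0%) were called, with 1246 genes at an unadjusted p under 0.05 and 91 called by DESeq2. *Eomes* and *Lmx1a* were called in neither fit. The Cell Ranger versions of the E14.5 controls, given above, enter this interaction as well.

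Genes whose levels over the embryonic clusters were most like each member were sought among 11970 genes, over 59 clusters of control cells from the same 6 libraries. For *Eomes* these were *Foxn2* (Pearson's r = 0.85), *Ppm1h* (0.832), *Rassf8* (0.824), *Igsf21* (0.822) and *Galnt15* (0.816). For *Lmx1a* they were *Patj* (0.812), *Hspa4l* (0.667), *Rspo2* (0.649), *Cdon* (0.614) and *Intu* (0.612). For *Otx2* they were its antisense neighbour *Otx2os1* (0.881), *Ccnd2* (0.848), *Ccdc141* (0.826), *Abca4* (0.824) and *Cxcl14* (0.809). Between the members r was 0.606 for *Eomes* and *Otx2*, 0.517 for *Lmx1a* and *Otx2*, and 0.325 for *Eomes* and *Lmx1a*. The clusters share libraries, and these values describe them without a test.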

How the data were processed

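Single-cell 3′ libraries (10x Genomics v3.1) of sorted TdTomato-positive cells were aligned to mm10 with an added WPRE sequence by the authors, and the deposited matrices hold UMI counts per gene and barcode. The submitters' processing notes name Cell Ranger 5.0.1, while the headers of E14.5 controls 1 and 2 name 3.1.0; a fit on the 5.0.1 libraries alone, with 1 E14.5 control, was an alternative. Cells with at least 1000 genes and under 5% mitochondrial UMIs were kept, since the limit of 1% named in the study's methods, with the same gene minimum, would leave 1034 cells of these matrices before doublet removal, and the 7.5% of barcodes in each library with the highest Scrublet score (6501 cells) were removed as doublets. Cells were clustered per stage (scanpy 1.11.5, 2000 variable genes, 30 principal components, Leiden resolution 1) without the members, *Atoh1*, the reporter, mitochondrial and sex-linked genes. A cluster was called cerebellar lineage when its summed Hox level was under 150 CPM and *Pax6* was at least 100 and *Zic1* at least 300 CPM, and when it was led by no other listed cell type. These numeric limits were set after cluster means had been seen, and the members and gene lists were chosen with earlier results of these data known.

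Counts were summed per embryo and tested by edgeR 4.0.16 (quasi-likelihood, TMM factors, Benjamini-Hochberg adjustment over all genes, called at 0.05); DESeq2 1.42.0, library totals, no low-count filter, 10% mitochondrial UMIs, no doublet removal and leaving out each replicate were alternatives. CPM is the UMI count per 1000000 UMIs of the summed cells. Each mutant was collected with its littermate, so equal replicate numbers mark a litter; the deviations of littermates correlated at 0.379 to 0.645 over genes, and litter as a replicate block is given wherever it changed a call. Each embryo is 1 replicate. Shares of cells were compared after thinning to 5000 UMIs, with a two-sided exact permutation test over embryos; a limma 3.58.1 fit of the logit of the shares was run as planned, and its unadjusted p is given with and without litter as a block where the former was under 0.05 in cerebellar cells, without adjustment over the 3 members, whose variances limma pools. Member genes were named by rule, together with their paralogs, unipolar brush cell partners, the 5 genes most like each over clusters and the 3 clusters highest in each; all other genes named are cluster leaders or list members, and the list genes given as examples were chosen after their values were seen. Single values of a few genes of these lists are not reported here. The scripts were tested on simulated data. Positions come from GENCODE vM21 and promoter sequences from RefSeq on GRCm38.p6.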

Additional observations from a re-analysis of the deposited data

Results flagged for a closer look

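The genotype difference of *Otx2* in sorted cells differed between the stages in the fit with litter as a block, with an interaction of -0.87 ± 0.11 on the log2 scale (E18.5 minus E14.5, edgeR adjusted p = 0.0080). *Otx2* was higher in the mutant in 3 of 3 litters at E14.5 and in 1 of 3 litters at E18.5. Without the block the same estimate was not called, and 9.77% of all genes were called with it. In E14.5 litters 1 and 2 Cell Ranger version and genotype cannot be told apart.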

How the results depend on the processing

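Of 604 alternative values over 60 results, 517 were labelled the same as the main value. For log2 fold changes this meant the same direction and the same side of the threshold. For counts of genes called it meant only a count near the main one. For shares of cells it meant only the same direction, since an exact permutation p of at least 0.1 cannot cross 0.05. Their replicate block values also reuse the main percentages and permutation p, so this number is not a measure of stability. Counts of genes called between genotypes moved most. In E14.5 sorted cells they were 456 by DESeq2, 6 with the 10% mitochondrial limit and 3208 with the replicate block, and 0 to 1 without single replicates. In E14.5 cerebellar cells these counts were 519, 103 and 2741, and 0 to 2. In E18.5 sorted cells DESeq2 called 22 and the block 20, in E18.5 cerebellar cells 68 and 84 with 11 at the 10% limit and 0 to 6 without single replicates, 0 of them without control 1, 2 or 3 or mutant 2 or 3, and for the interaction 91 and 1794. The replicate block brought calls on *Otx2* at E14.5 in sorted (0.77) and cerebellar cells (0.54), on *Lmx1a* in E14.5 cerebellar cells (-0.65), on the *Otx2* interaction (-0.87) and on 2 cluster pairs, among them *Otx2* in cluster 12 (0.39); it changed no other call on a member's summed level. For shares of cells at E14.5 the limma block fit fell under the unadjusted limit of 0.05 for all 3 members in cerebellar cells. There the exact permutation p was 0.1, the smallest possible, for *Eomes* and *Otx2* and 0.5 for *Lmx1a*. The block fit also fell under that limit for *Otx2* in sorted cells, and the limma fit without the block did not. The exact permutation p for *Otx2* in sorted cells was 0.3, above the smallest possible. With the replicate block but without litter 2 of E14.5 the counts were 2106 in sorted cells, 2800 in cerebellar cells, 1664 for the interaction and 10 cluster pairs, and the calls above kept their direction (*Otx2* 0.7936 in sorted, 0.5284 in cerebellar cells and -0.8963 for the interaction; *Lmx1a* -0.7402 in cerebellar cells). The cause of the moves below was not tested.

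Some directions changed with the setting. *Eomes* at E14.5 in sorted cells was -0.031 with the block, -0.32 in libraries of the newer Cell Ranger version, which leaves 1 control, and -0.26 to 0.36 without single replicates. At E18.5 the latter range was -0.33 to 0.11 in sorted and -0.32 to 0.0386 in cerebellar cells, and for *Otx2* in sorted cells -0.26 to 0.0227. *Lmx1a* at E14.5 in cerebellar cells was 0.35 with stricter marker limits and -1.23 to -0.11 without single replicates; at E18.5 it was -0.67 to -0.036 in sorted and -0.68 to -0.0377 in cerebellar cells without single replicates. For stage in controls, *Lmx1a* in sorted cells was -0.43 with library totals, 0.12 with the 10% limit and -0.71 to -0.38 without single replicates; *Otx2* in cerebellar cells was 0.0949 with library totals, 0.0303 unfiltered, 0.21 with the 10% limit, 0.0531 with doublets kept, -0.14 to 0.12 without single replicates and -0.32 with stricter limits. Shares of cells, mutant minus control in percentage points, turned at 2 or more UMIs for *Eomes* (0.29) and *Lmx1a* (-0.2) in E14.5 sorted cells and unthinned for *Lmx1a* in cerebellar cells (0.22). Without single replicates they were -1.88 to 0.77 for *Eomes* in E14.5 sorted cells, -6.99 to 1.4 for *Lmx1a* in E14.5 cerebellar cells, -4.12 to 1.47 for *Eomes* and -5.19 to 1.01 for *Otx2* in E18.5 sorted cells, and -4.41 to 1.26 for *Eomes* in E18.5 cerebellar cells. Within E14.5 clusters, leaving out single replicates gave -0.27 to 0.11 for *Eomes* in cluster 4, -0.18 to 0.0141 for *Otx2* in cluster 8, -0.42 to 0.20 for *Eomes* in cluster 12, and -0.30 to 0.094 for *Lmx1a* and -0.0062 to 0.0932 for *Otx2* in cluster 28. Within E18.5 clusters it gave -0.16 to 0.0392 for *Otx2* in cluster 11, and -0.24 to 0.0002 for *Eomes* and -0.0307 to 0.20 for *Lmx1a* in cluster 19. Single replicates left out at E14.5 leave 2 embryos in an arm. The settings for stricter limits, for leaving out litter 2 (with or without the block) and for cerebellar shares were chosen after seeing the data.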
